A study of Mus musculus with 10 samples.

Results

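The signal transducers and activators of transcription (STAT proteins) read here were Stat2, Stat3, Stat4, Stat5a, Stat5b and Stat6 of the mouse. All probe sets were taken whose platform annotation gives exactly 1 gene symbol and that symbol is one of these 6 genes, which gave 13 of the 45101 probe sets and 6 of the 18194 genes named by single-symbol probe sets of the array. Stat3 had 4 of them, Stat4 had 1 and each of the other genes had 2. The genes were taken as members of a named family, and that choice was made with earlier results of these data known. The mice were C57Bl/6, 8 to 12 weeks old, and RNA of the CD4+ splenocytes of each was hybridized to an Affymetrix array of its own. In the CLP group (5 mice) the cecum was ligated and punctured under halothane, which lets gut bacteria into the abdomen and is a model of polymicrobial sepsis. In the sham group (5 mice) the cecum was brought out and handled under halothane but left whole. Spleens were taken 6 h after surgery, and cells of other types were removed with magnetic beads, to a purity the study's design text puts at about 91% CD4+, so a minority of other cells remained in every sample.

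STAT proteins wait in the cytoplasm until a cytokine binds its receptor and the Janus kinases on that receptor phosphorylate them on a tyrosine. They then pair, enter the nucleus and switch on genes, among them the SOCS genes that shut the pathway off again. STAT3 serves IL-6, IL-10 and IL-21, STAT4 serves IL-12, STAT5A and STAT5B serve IL-2 and IL-7, STAT6 serves IL-4, and STAT2 works with IRF9 downstream of the type I interferons. The activating step is on the protein, and an RNA array reads only the transcripts.

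The DNA elements that STAT proteins bind are short, and 4 promoters are shown because they belong to the STAT gene with the largest difference between the groups (Stat3), to a STAT gene whose window holds an interferon element (Stat2), and to 2 target genes that rose in CLP mice (Socs3 and Ifit3). Each is the 250 bases before the annotated start, 5′ to 3′ on the gene's own strand, from RefSeq annotation of GRCm38.p6: Stat3 at chr11:100939541-100939790 on the minus strand, Stat2 at chr10:128270248-128270497 on the plus strand, Socs3 at chr11:117969367-117969616 on the minus strand and Ifit3 at chr19:34583279-34583528 on the plus strand. Capitals mark matches, on either strand, to TTCNNNGAA (a gamma-activated site, GAS), to TTC and GAA 4 bases apart (the wider spacing that STAT6 favours) or to GAAA and GAAA 2 bases apart (the core of an interferon-stimulated response element, ISRE).
Stat3: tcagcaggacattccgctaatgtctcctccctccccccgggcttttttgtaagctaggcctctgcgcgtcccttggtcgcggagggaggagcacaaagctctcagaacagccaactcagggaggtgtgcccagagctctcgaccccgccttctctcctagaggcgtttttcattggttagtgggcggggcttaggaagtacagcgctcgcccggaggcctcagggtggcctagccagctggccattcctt
Stat2: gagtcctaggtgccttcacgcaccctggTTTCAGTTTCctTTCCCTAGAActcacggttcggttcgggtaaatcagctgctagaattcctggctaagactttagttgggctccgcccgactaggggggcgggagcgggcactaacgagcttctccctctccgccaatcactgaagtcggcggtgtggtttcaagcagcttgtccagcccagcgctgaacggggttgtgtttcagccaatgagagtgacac
Socs3: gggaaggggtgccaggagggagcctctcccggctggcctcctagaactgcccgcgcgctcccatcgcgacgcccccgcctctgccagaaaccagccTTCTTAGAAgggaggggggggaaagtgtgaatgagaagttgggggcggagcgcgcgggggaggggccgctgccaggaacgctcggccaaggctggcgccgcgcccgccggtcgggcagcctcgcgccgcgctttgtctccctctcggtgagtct
Ifit3: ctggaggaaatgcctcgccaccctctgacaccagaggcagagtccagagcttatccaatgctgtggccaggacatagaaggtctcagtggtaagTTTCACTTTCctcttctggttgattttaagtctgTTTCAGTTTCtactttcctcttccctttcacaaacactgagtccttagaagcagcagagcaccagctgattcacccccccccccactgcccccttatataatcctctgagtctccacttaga
Stat3 held none of the 3 patterns in this window, on either strand. Stat2 held an ISRE pattern at bases -222 to -213 from the start and, 2 bases after it, a match to the wider spacing at -210 to -201. Socs3 held 1 GAS pattern, at -154 to -146, and Ifit3 held 2 ISRE patterns, at -156 to -147 and at -122 to -113. No 2 matches overlapped. Gzmb, a listed target that also rose, and Tbx21, one that fell, held none of the 3 patterns in their windows and are not shown. Il10 and the STAT2 target Rtp4, which also rose, had no window in the promoter set used, so their promoters were not read. Among 32544 annotated promoter windows of the same length, 7.04% held the GAS pattern, 5.89% the wider spacing and 2.98% the ISRE pattern. The 6 STAT genes had 9 annotated windows between them, of which 0 held the GAS pattern, 1 the wider spacing (Stat2) and 2 the ISRE pattern (Stat2 and the second window of Stat4). A match describes the letters only.

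Values below are log2 intensities, with the arrays brought to the same median, and a fold change is CLP over sham. Deposited intensities ran from 0 to 20290 and array medians from 127.6 to 142.4, and precision is limited by having 5 arrays a group. Probe sets with a mean log2 below 6.70 were not tested, which left 27028, and a probe set passed where its p-value from limma, adjusted by Benjamini-Hochberg over all of these, was below 0.05. In all, 190 probe sets passed (0.703%), 45 higher and 145 lower in CLP mice, and this total was 4 when sham replicate 3 was left out and 506 when CLP replicate 1 was left out. The arrays also fell into 2 classes by the signal of an 18S ribosomal RNA control, cut at an intensity of 1000. This signal was 3134 to 4436 in CLP replicates 1, 3 and 5 and 3223 to 5178 in sham replicates 1, 3 and 5. In CLP replicates 2 and 4 it was 228 to 268, and in sham replicates 2 and 4 it was 194 to 234. The cause of the split was not tested. Both groups hold 3 arrays of high and 2 of low 18S signal. Of the CD4 T cell markers, Cd3e, Cd3d, Cd3g, Cd4 and Cd28 were at a log2 of 10.17 or higher on every array. Cd5 went down to 9.35 and Trat1 to 9.38, and Lck was not tested. Among markers of plasma cells, Jchain averaged 12.80 in CLP and 12.95 in sham arrays, and Sdc1 7.47 and 7.44. Monocyte markers were uneven: Lyz2 averaged 6.74 and 6.84, Cd14 8.79 and 8.07, and Csf1r 11.36 and 11.34. Of 6 tested monocyte markers 4 had a higher mean in CLP arrays. Of 7 tested neutrophil markers 4 did, with Ngp at 9.24 in CLP and 8.14 in sham arrays and S100a8 at 10.28 and 11.10. None of these markers passed the threshold. The summed intensity of 7 CD4 T cell markers was 12650 to 13730 in CLP arrays, against 14155 to 17555 in sham arrays, without overlap. The sums of B cell, plasma cell, neutrophil, monocyte and erythroid markers overlapped between the groups, and that of natural killer cell markers, given below, did not. The part of these marker differences in the values below was not tested, and in RNA of a whole cell preparation fewer cells of a type and less RNA per cell cannot be told apart.

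No STAT transcript passed in CLP against sham mice. Of the 13 probe sets 12 were bright enough to test, at least 1 for every gene, and 0 of these 12 passed by limma, where 0.703% of all probe sets did; 1 of the 12 had an unadjusted p below 0.05, against 10.9% of all probe sets. In 0 of the 12 did the CLP and sham arrays separate, against 2.97% of all probe sets (0.862% with all CLP arrays above and 2.11% with all CLP arrays below the sham arrays). The mean was higher in CLP arrays for 10 of the 12 and lower for 2, against 51.3% higher among all probe sets, and the median log2 fold change of the 12 was 0.19, against 0.00492 over all probe sets. The 12 read only 6 genes on the same arrays, and 4 of the 10 higher ones are of Stat3, so they are not independent. The adjusted p-values ran from 0.25 to 0.992.

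**Figure D1:**
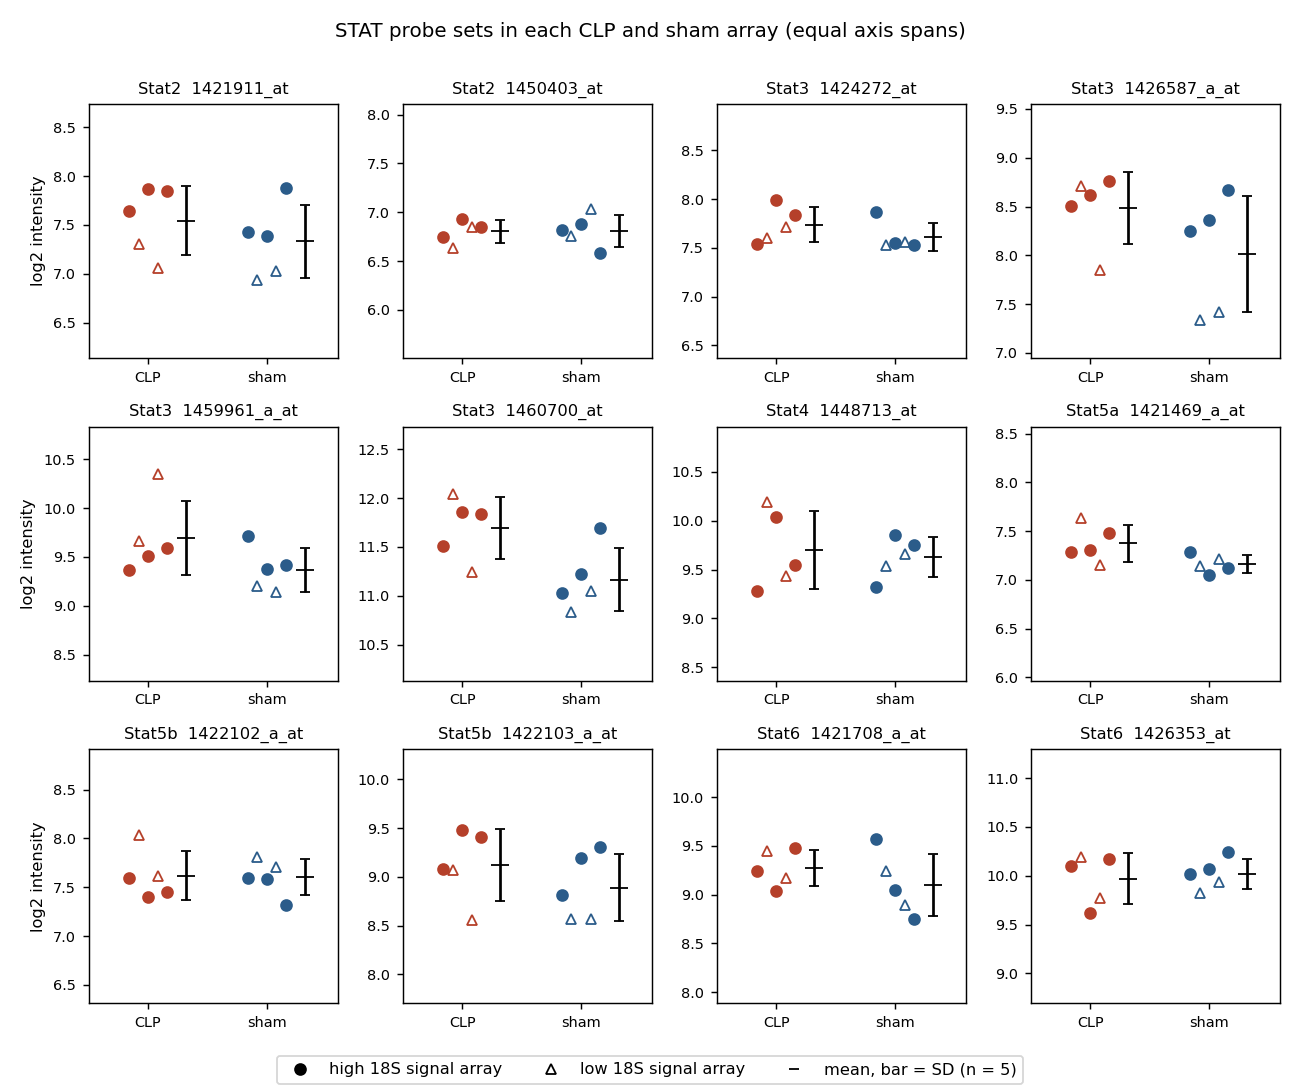
Log2 intensity (vertical axis) of the 12 tested STAT probe sets in each of 5 CLP arrays (red, left) and 5 sham arrays (blue, right); filled circles are arrays of high and open triangles arrays of low 18S signal, and black bars give mean and SD. All panels span the same range of log2 units; the CLP and sham points overlap in every panel, and in Stat3 1460700_at 4 of the 5 sham arrays lie below all CLP arrays.

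Stat3, the transducer of IL-6 and IL-10 and a driver of T helper 17 cells, showed the largest difference of the family. Its brightest probe set, 1460700_at, had log2 intensities of 11.51, 12.04, 11.86, 11.24 and 11.84 in CLP replicates 1 to 5, against 11.03, 10.83, 11.22, 11.05 and 11.70 in sham replicates 1 to 5. All 5 CLP arrays lay above the sham median, 4 of the 5 sham arrays lay below every CLP array, and only sham replicate 5 reached into the CLP range. The means were 11.70 ± 0.32 in CLP and 11.17 ± 0.33 in sham arrays (SD, n = 5 each), a log2 fold change of 0.53 ± 0.18 (SE), or 1.45-fold. This did not pass over all probe sets (unadjusted p = 0.014, adjusted p = 0.25 by limma), and the 95% interval of the fold change, not adjusted for the number of probe sets, ran from 1.09 to 1.91.

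The other 3 probe sets of Stat3 also had a higher mean in CLP arrays and did not pass. Probe set 1426587_a_at had 8.50, 8.71, 8.62, 7.85 and 8.76 in CLP arrays, against 8.25, 7.34, 8.36, 7.42 and 8.67 in sham arrays. The low values of this probe set, CLP replicate 4 and sham replicates 2 and 4, were all on arrays of low 18S signal. By limma it was higher by 0.48 ± 0.27 in log2 mean (SE, adjusted p = 0.609), within the spread of the arrays. Probe set 1459961_a_at had 9.36, 9.66, 9.51, 10.35 and 9.60 in CLP arrays, against 9.72, 9.20, 9.38, 9.14 and 9.41 in sham arrays. Here CLP replicate 4, which was low in the probe set before, was the highest array, and the log2 fold change was 0.33 ± 0.18 (adjusted p = 0.588 by limma). Probe set 1424272_at had 7.54, 7.60, 7.99, 7.72 and 7.84 in CLP arrays, against 7.87, 7.53, 7.55, 7.56 and 7.53 in sham arrays. The sham arrays were tight apart from replicate 1, which lay inside the CLP range, and the log2 fold change was 0.13 ± 0.11 (adjusted p = 0.804 by limma). With the 4 probe sets averaged per array, Stat3 gave 0.37 ± 0.12 (adjusted p = 0.225 by limma over all genes), or 1.29-fold.

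Stat5a and Stat5b are neighbouring genes for closely related proteins that carry the IL-2 and IL-7 signals for T cell survival and for regulatory T cells. For Stat5a, probe set 1421469_a_at had 7.29, 7.64, 7.31, 7.15 and 7.48 in CLP arrays, against 7.29, 7.14, 7.05, 7.21 and 7.12 in sham arrays. All 5 CLP arrays were above the sham median, by small amounts in all but replicates 2 and 5. The means were 7.37 ± 0.19 in CLP and 7.16 ± 0.091 in sham arrays (SD, n = 5 each), 0.21 ± 0.10 apart on the log2 scale (SE), and limma gave an adjusted p of 0.496. The other probe set of Stat5a, 1450259_a_at, was not tested: its deposited intensity was 25.7 to 33.1 in CLP arrays, against 23.4 to 29.5 in sham arrays, all under the floor of 69.8 that was set for dim values, so its values have no order here.

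For Stat5b, the brighter probe set 1422103_a_at had 9.08, 9.07, 9.48, 8.55 and 9.41 in CLP arrays, against 8.82, 8.57, 9.19, 8.56 and 9.30 in sham arrays. The lowest CLP array and the lowest sham arrays were level, and the log2 fold change was 0.23 ± 0.20 (adjusted p = 0.814 by limma). The dimmer probe set 1422102_a_at had 7.59, 8.03, 7.40, 7.62 and 7.45 in CLP arrays, against 7.60, 7.81, 7.59, 7.71 and 7.32 in sham arrays. Its group means were 7.62 ± 0.25 in CLP and 7.60 ± 0.18 in sham arrays (SD, n = 5 each), and its log2 fold change was 0.015 ± 0.13 (adjusted p = 0.99 by limma).

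Stat2, the interferon transducer, was dim on both probe sets. Probe set 1421911_at had 7.64, 7.30, 7.87, 7.06 and 7.85 in CLP arrays, against 7.43, 6.94, 7.39, 7.03 and 7.87 in sham arrays. The highest sham array matched the highest CLP array, and in both groups replicates 2 and 4 were the lowest. The log2 fold change was 0.21 ± 0.20 (adjusted p = 0.846 by limma). Probe set 1450403_at lay between 6.64 and 6.93 in CLP arrays, against 6.58 to 7.03 in sham arrays, close to the filter of 6.70. Its log2 fold change was -0.0082 ± 0.10 (adjusted p = 0.992 by limma).

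Stat4 passes on the IL-12 signal that makes T helper 1 cells. Its probe set 1448713_at had 9.28, 10.20, 10.04, 9.43 and 9.55 in CLP arrays, against 9.33, 9.54, 9.85, 9.66 and 9.75 in sham arrays. CLP replicates 2 and 3 lay above every sham array and CLP replicate 1 below every sham array, so the CLP group was the wider one, at 9.70 ± 0.40 against 9.63 ± 0.20 (SD, n = 5 each). The log2 fold change was 0.074 ± 0.18 (adjusted p = 0.957 by limma), with a 95% interval of the fold change from 0.80 to 1.38.

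Stat6 answers IL-4 and directs T helper 2 cells. Probe set 1426353_at had 10.10, 10.19, 9.61, 9.77 and 10.17 in CLP arrays, against 10.02, 9.83, 10.07, 9.93 and 10.24 in sham arrays. CLP replicates 3 and 4 were the lowest of all arrays and the other 3 lay within the sham range. The log2 fold change was -0.049 ± 0.13 (adjusted p = 0.96 by limma), with a 95% interval of the fold change from 0.79 to 1.18. Probe set 1421708_a_at had 9.24, 9.44, 9.04, 9.17 and 9.48 in CLP arrays, against 9.57, 9.24, 9.05, 8.90 and 8.75 in sham arrays, and all CLP values lay inside the sham range. Its log2 fold change was 0.17 ± 0.15 (adjusted p = 0.822 by limma).

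**Figure D2:**
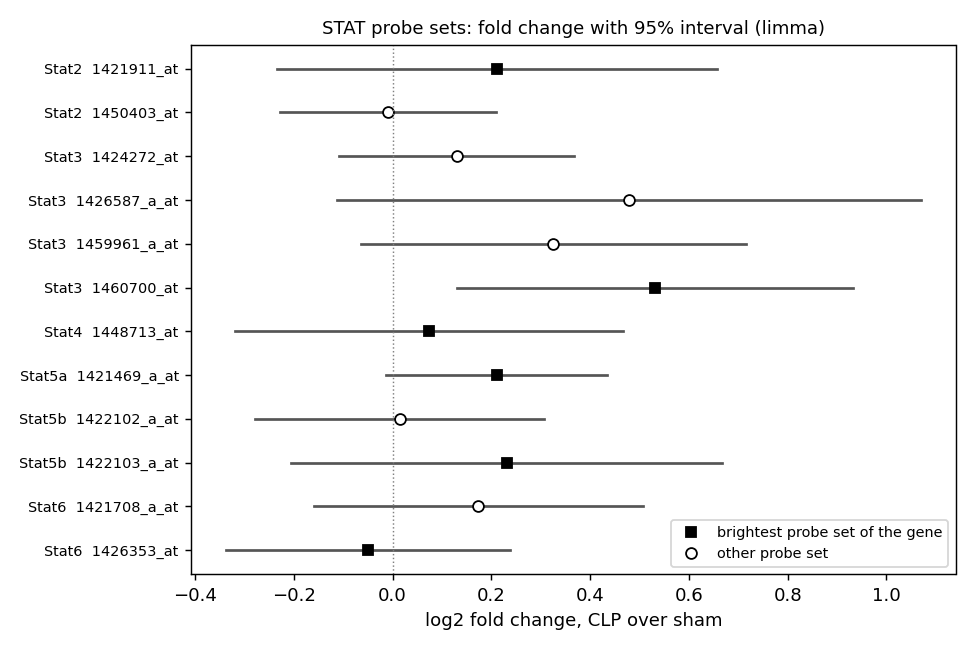
Log2 fold change of CLP over sham (horizontal axis) for the 12 tested STAT probe sets, with 95% intervals not adjusted for the number of probe sets; squares mark the brightest probe set of each gene. Only the interval of Stat3 1460700_at, from 0.13 to 0.93, stays clear of 0, and 10 of the 12 points lie above 0.

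Whether one STAT gene differed from another in its CLP response was tested on the difference of their brightest probe sets within each array. Over the 15 pairs of genes, 0 passed by a two-sided exact permutation test after adjustment over the pairs, and 2 had an unadjusted p below 0.05. The largest difference was between Stat3 and Stat6, with a log2 fold change 0.58 higher for Stat3 (exact permutation p = 0.0159, adjusted p = 0.214 over 15 pairs). Stat3 exceeded Stat4 by 0.46 (exact permutation p = 0.0397, adjusted p = 0.214). The fold change of Stat2 minus that of Stat3 was -0.32 (exact permutation p = 0.0556, adjusted p = 0.214). The smallest p this design allows is 0.00794, so a single differing pair could not go below an adjusted p of 0.119 over the 15 gene pairs or 0.0714 over the 9 pairs of probe sets, and these counts of 0 say little. Of the 9 pairs of probe sets of the same gene, 0 passed (lowest exact permutation p = 0.111, adjusted p = 0.694), the largest gap being 0.40 between 1460700_at and 1424272_at of Stat3.

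Some STAT probe sets differed between the 18S classes of the arrays. With group and class in one limma model, 3 of the 12 tested STAT probe sets differed between the classes, all higher on the high 18S arrays, where 15.1% of all probe sets did and 10.1% did in that direction. They were Stat2 1421911_at (log2 difference 0.59 ± 0.11, SE, adjusted p = 0.0054), Stat3 1426587_a_at (0.70 ± 0.18, adjusted p = 0.0277) and Stat5b 1422103_a_at (0.52 ± 0.13, adjusted p = 0.0231). The other Stat5b probe set gave -0.30 ± 0.10 and did not pass (adjusted p = 0.0721). The brightest Stat3 probe set gave 0.24 ± 0.18 (adjusted p = 0.403 by limma).

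**Figure D3:**
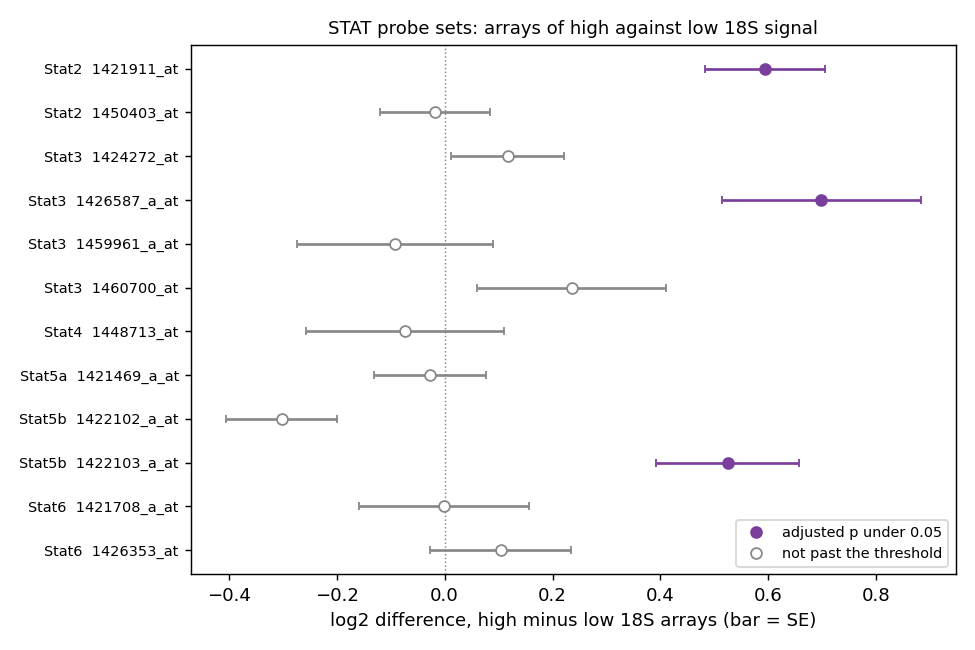
Log2 difference between arrays of high and of low 18S signal (horizontal axis, bars are SE) for the 12 tested STAT probe sets, from a model that also holds the group; filled points passed an adjusted p of 0.05. Stat2 1421911_at, Stat3 1426587_a_at and Stat5b 1422103_a_at lie between 0.52 and 0.70.

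Within the classes, the CLP difference of Stat3 1460700_at was 0.42 on the high 18S arrays (3 CLP and 3 sham) and 0.70 on the low 18S arrays (2 CLP and 2 sham), where both CLP arrays were above both sham arrays. Stat3 1426587_a_at differed by 0.20 on high and 0.90 on low 18S arrays, and 1459961_a_at by -0.014 on high and 0.84 on low 18S arrays. Stat2 1421911_at differed by 0.22 on high and 0.20 on low 18S arrays, and Stat5b 1422103_a_at by 0.22 on high and 0.24 on low. Stat6 1426353_at went opposite ways, by -0.15 on high and 0.10 on low 18S arrays. A test of the CLP difference between the classes passed for 0 of the 12 STAT probe sets by limma, and for 0 of all 27028. With the class in the model as a block, the adjusted p of Stat3 1460700_at was 0.138 and that of the other STAT probe sets was 0.215 or higher.

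The transcripts around the STAT proteins were read by 10 lists, with each gene given by its brightest tested probe set. They hold 131 genes, of which 102 were tested; 5 rose and 1 fell, together 5.88%, against 0.75% of 13073 genes over the whole array. The CLP and sham arrays of a gene did not overlap in 3.13% of these 13073, 0.849% with CLP above and 2.28% with CLP below. These lists were drawn up with earlier results of these arrays known, so the share of 5.88% is a description. It counts Il10, which was tested only because of its CLP arrays, as given below. The median log2 fold change over the 102 genes was 0.10, against 0.00457 over all genes. The 5 rises became 0 when CLP replicate 2 or 5 or sham replicate 1, 2, 3 or 4 was left out, 2 when CLP replicate 3 was, 8 when CLP replicate 1 was, and 12 with the 18S class as a block. The 6 genes that passed, Il10, Socs3, Ifit3, Rtp4, Gzmb and Tbx21, all passed with that block too (adjusted p = 0.0138 to 0.0284 by limma), and each failed to pass in 7 to 9 of the 10 fits that left out 1 array.

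Among the ligands that act through STAT proteins, 1 of 7 tested rose and 0 fell. Il10, an anti-inflammatory cytokine that signals through STAT3, had 7.14, 8.52, 7.95, 7.83 and 7.44 in CLP arrays, against 6.40, 6.50, 6.61, 6.84 and 6.42 in sham arrays. Every CLP array was above every sham array, and the gene passed at a log2 difference of 1.22 ± 0.22 (SE, adjusted p = 0.035 by limma). Its sham mean of 6.56 was below the filter of 6.70 and near the floor of 6.13, so it was tested only because of its CLP arrays, and the size depends on the floor: it was 1.06 (adjusted p = 0.0459) with the floor at the 40th percentile, and with the filter at the 60th percentile Il10 was not tested. Il2, the growth factor read through STAT5, gave 0.52 ± 0.20 (adjusted p = 0.331), Osm, a cytokine of the IL-6 family, gave 0.12 ± 0.13, and Csf2 (GM-CSF) gave 0.090 ± 0.16, and none of these passed.

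Of 17 tested receptor chains 0 passed, with a median log2 fold change of 0.00243. Ifngr1, the ligand-binding chain of the interferon gamma receptor, came nearest at 0.85 ± 0.19 (adjusted p = 0.0676 by limma) and its CLP arrays were all above its sham arrays; with the 18S class as a block its adjusted p was 0.0389, past the threshold. Il15ra (0.15 ± 0.073), Ifngr2 (0.35 ± 0.18) and Il27ra (-0.28 ± 0.14), a receptor chain for IL-27, did not pass. Of the 4 Janus kinases 0 passed: Tyk2 gave -0.41 ± 0.23, Jak3, which serves the common gamma chain, 0.18 ± 0.12, Jak2 0.044 ± 0.10 and Jak1 0.014 ± 0.12. The signs of Jak1 and Jak2 turned on the high 18S arrays alone, where Jak1 gave -0.028 and Jak2 -0.046, and Jak1 was -0.21 with its probe sets averaged.

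Among 17 tested inhibitors of the pathway 1 rose and 0 fell. Socs3, which blocks STAT3 signalling at the receptor and is itself a STAT3 target with the GAS pattern shown above, had 12.68, 13.00, 12.95, 12.93 and 12.82 in CLP arrays, against 12.40, 12.18, 12.21, 12.24 and 12.64 in sham arrays. The groups did not overlap, sham replicate 5 coming nearest to the CLP arrays, and Socs3 rose 1.46-fold (log2 0.55 ± 0.11, SE, adjusted p = 0.0489 by limma). Its 2 other probe sets gave 0.57 ± 0.15 and 0.41 ± 0.14 and did not pass, nor did the mean of all its probe sets (0.51, adjusted p = 0.0691), nor this one with robust variance estimates (adjusted p = 0.0504). Pias2, a SUMO ligase that restrains STAT proteins, was split: its brightest probe set gave 0.67 ± 0.16 (adjusted p = 0.0931, or 0.0296 with the 18S class as a block). A dimmer one fell by 0.67 on the log2 scale (adjusted p = 0.0415) and the third gave -0.60 ± 0.14. The tyrosine phosphatases Ptpn6 (-0.35 ± 0.12) and Ptpn2 (-0.21 ± 0.094) did not pass. Of 8 partners and coactivators 0 passed, the lowest p belonging to Jun at 0.14 ± 0.095, Ndufa13 at -0.14 ± 0.10, Ep300 at -0.13 ± 0.099 and Kpna1, a nuclear importer, at -0.14 ± 0.13.

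The genes that STAT2 switches on with IRF9 gave the highest median of the 10 lists, 0.54 over 17 genes, with all 17 means above 0 and 2 genes past the threshold. Ifit3, an antiviral protein whose promoter with its ISRE patterns is shown above, had 9.36, 9.03, 9.11, 9.28 and 9.62 in CLP arrays, against 8.53, 8.17, 8.44, 8.33 and 8.86 in sham arrays. The groups were separate, and Ifit3 rose 1.76-fold (adjusted p = 0.0362 by limma). Rtp4, an interferon-induced gene, also rose 1.76-fold (adjusted p = 0.0466), at 11.70 to 12.05 in CLP arrays, against 10.63 to 11.52 in sham arrays. Oasl1 (0.54 ± 0.11, adjusted p = 0.0605) and Ifih1 (0.64 ± 0.14, adjusted p = 0.0676), a sensor of double-stranded RNA, did not pass; with the 18S class as a block both did, at adjusted p-values of 0.0272 and 0.0383.

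Of 14 tested STAT3 targets 1 rose, Socs3, and 0 fell, with a median of 0.15. The brightest probe set of Rora gave 0.049 ± 0.31 and did not pass, but 1 of its 7 other tested probe sets did. Cebpb, a bZIP factor of acute inflammation, gave 0.93 ± 0.26 (adjusted p = 0.139, or 0.028 with the 18S class as a block), Bcl3, an NF-kB cofactor, 0.84 ± 0.25 (adjusted p = 0.16) and Maf -0.46 ± 0.15, and none passed by limma without the block. Of 9 STAT4 targets 0 rose and 1 fell: Tbx21 (T-bet), the T helper 1 regulator, had 7.98, 7.66, 7.97, 8.36 and 7.48 in CLP arrays, against 8.44, 8.87, 8.89, 9.07 and 8.81 in sham arrays. All CLP arrays were below all sham arrays, and the gene was 1.90-fold lower (adjusted p = 0.0358 by limma). It did not pass in 8 of the 10 fits that left out 1 array, those without CLP replicate 2, 3 or 5 or any sham replicate (adjusted p up to 0.117). Map3k8 (0.82 ± 0.20, adjusted p = 0.0973), Furin (0.53 ± 0.15) and Il18rap (0.14 ± 0.095) of the same list did not pass.

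Of 16 STAT5 targets 1 rose and 0 fell, with a median of 0.12. Gzmb, the cytotoxic protease granzyme B, had 9.65, 10.81, 9.68, 9.97 and 10.57 in CLP arrays, against 8.99, 8.87, 8.71, 8.84 and 8.76 in sham arrays, a clear gap, and rose 2.47-fold (adjusted p = 0.0287 by limma). Gzmb and Tbx21 are also made by natural killer cells, of whose 5 listed markers 2 were bright enough to test (Klrd1 and Nkg7). The summed intensity of the NK markers was 1738 to 2248 in CLP arrays, against 2283 to 3038 in sham arrays, neither gene passed, and their part in the values of Gzmb and Tbx21 was not tested. Foxp3, the regulatory T cell factor, gave 1.10 ± 0.22 (adjusted p = 0.053, just short of the threshold, and 0.0277 with the 18S class as a block), and Pim2, a survival kinase, -0.39 ± 0.12 and Lta, lymphotoxin alpha, -0.38 ± 0.16 did not pass. Of 6 tested STAT6 targets 0 passed, with a median of -0.17, the lowest of the 10 lists. Gata3, the T helper 2 regulator, gave -0.46 ± 0.13 (adjusted p = 0.147) and passed as lower with the 18S class as a block (adjusted p = 0.043), Maf is given above, Gfi1 gave -0.28 ± 0.22 and Il4ra 0.14 ± 0.090.

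**Figure D4:**
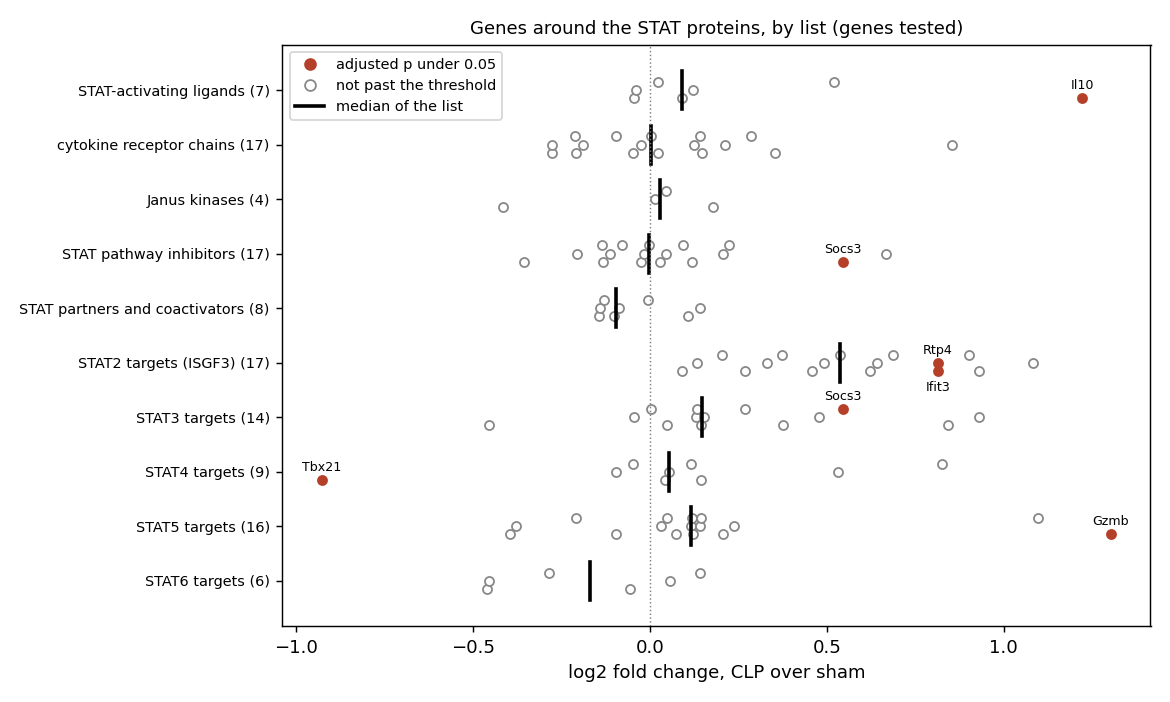
Log2 fold change of CLP over sham (horizontal axis) for the genes of 10 lists around the STAT proteins, 1 point per tested gene; filled red points passed an adjusted p of 0.05 and black bars are list medians. Il10, Socs3, Ifit3, Rtp4 and Gzmb lie to the right, Tbx21 to the left, and the STAT2 target list has the median farthest from 0, at 0.54.

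The genes whose pattern over the 10 arrays was most like each STAT gene, after the mean of each group was subtracted, were found among 13072 other genes by Pearson's r, as a description with no test. For Stat3 they were Bin3 (r = 0.97), Snf8 (0.97) and Nepro (0.96), and for Stat2 they were Kcnc1 (0.98), Fkbp15 (0.98) and Plekha7 (0.98). Stat5b was closest to Anapc1 (0.98), Dock2 (0.98) and H2az2 (0.97), and Stat4 to Ikbkg (0.96), Spred2 (0.94) and Dicer1 (0.93). Stat5a was closest to Upk3bl (0.96), Ifitm1 (0.95) and Kif1a (0.95), and Stat6 to the Janus kinase gene Jak3 (0.94), Slc12a4 (0.90) and Tm9sf4 (0.90). Among the STAT genes themselves the closest pair was Stat2 and Stat5b (r = 0.92), both higher on high 18S arrays, and with the mean of each 18S class subtracted as well it was 0.74. Stat3 and Stat5b had 0.80 before and 0.91 after that step, Stat4 and Stat5b 0.42 and 0.91, and Stat4 and Stat6 0.020 and -0.012. All of these points share the arrays and their 18S classes.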

How the data were processed

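CD4+ splenocyte RNA of 5 CLP and 5 sham mice went through 2 rounds of amplification and onto 1 Affymetrix array a mouse, per the labels' protocols. The authors deposited 1 linear intensity per probe set and array, and how it was computed from the scans is not given in the sources used here. Genes were named from the platform annotation and looked up in RefSeq genes of GRCm38.p6.

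All arrays were multiplied to 1 shared median, values under the 25th percentile (69.8) were set to it, and log2 was taken. Controls and the dimmest probe sets, with a mean under the 40th percentile, were left out. CLP was set against sham by limma 3.58.1 (R 4.3.3) with Benjamini-Hochberg adjustment over 27028 probe sets; the fit was tested on simulated arrays. Differences between STAT genes were tested by exact permutation over 252 arrangements. The members and lists were chosen with earlier results of these data known, and the 18S class test was added after values were seen. Named were all STAT probe sets, list genes past the threshold, up to 4 list genes with the lowest p, and the 3 genes most like each STAT gene. The dimmer Pias2 probe set and Rora were named after their values were seen. The sham titles all read biological replicate 1 with a suffix, sham-1 to sham-5, and the suffix was taken as the replicate number. The study's design text gives 5 biological replicates a group. With the mean of each group subtracted, same-numbered CLP and sham arrays correlated by 0.0634 to 0.582, so the numbers were not taken as pairs. Replicates 2 and 4 were the low 18S arrays in both groups. Alternatives were other normalizations, floors, filters, variance models, array weights, blocks, a 3 prime bias covariate, averaged probe sets and leaving out each array.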

Additional observations from a re-analysis of the deposited data

Results flagged for a closer look

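Among 24 groups of 5 arrays, 2 held an array far from the other 4, both in Stat3; chance gives about 1 in 20. On probe set 1424272_at, sham replicate 1 was at a log2 of 7.87, above the other sham arrays at 7.53 to 7.56, and without it the log2 fold change was 0.19 in place of 0.13. On probe set 1426587_a_at, CLP replicate 4 was at 7.85, below the other CLP arrays at 8.50 to 8.76, and without it the log2 fold change was 0.64 in place of 0.48. Neither probe set passed with or without that array.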

How the results depend on the processing

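No STAT probe set passed in any of 24 other settings, nor with probe sets averaged; the lowest adjusted p was 0.0663, for Stat3 1460700_at with array weights. The log2 fold change of that probe set was 0.42 to 0.70 over these 24 settings. Of 285 values of the STAT probe sets in these settings 18 had the other sign. On high 18S arrays alone these were Stat2 1450403_at (0.084), Stat3 1459961_a_at (-0.014), Stat4 (-0.019) and Stat5b 1422102_a_at (-0.020), and on low 18S arrays alone Stat6 1426353_at (0.10). The mean of both Stat6 probe sets was 0.062, against the negative value of the brightest one, Stat2 probe set 1450403_at was 0.0015 without scaling, and Stat5b probe set 1422102_a_at was -0.088 with array weights. With single arrays left out, Stat2 1450403_at ran from -0.066 to 0.046, Stat4 from -0.050 to 0.18, Stat5b 1422102_a_at from -0.089 to 0.070 and Stat6 1426353_at from -0.11 to 0.039. Pias2 was -0.20 with probe sets averaged, and Csf2 was -0.0042 with array weights. Jak1 was -0.028 on high 18S arrays alone and -0.21 with probe sets averaged, and Jak2 was -0.046 on high 18S arrays alone. With single arrays left out Csf2 ran from -0.031 to 0.18, Jak1 from -0.048 to 0.092 and Jak2 from -0.0027 to 0.10. The cause of these turns was not tested.

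The count of all probe sets higher and lower in CLP, 45 and 145, became 175 and 543 with the 18S class as a block, 112 and 322 with the 3 prime bias covariate, 154 and 355 with array weights, 0 and 3 without a filter, and 0 and 0 on the high or the low 18S arrays alone (3613 and 1959 at an unadjusted p under 0.05 by limma), where fewer arrays enter. Without single arrays the counts ran from 0 to 123 higher and from 4 to 383 lower. List genes that rose, 5, became 12 with the 18S class as a block, 9 with the 3 prime bias covariate, 11 with array weights and 0 without a filter or on either class alone, and ran from 0 to 8 without single arrays. The 1 that fell, Tbx21, became 2 with the 18S class as a block, with Gata3, and 0 without a filter or on either class alone, and ran from 0 to 1. The replicate block moved the count of probe sets higher in CLP to 90 and lower to 158, and called 0 STAT probe sets. By limma it gave Stat3 1460700_at an adjusted p of 0.159, Socs3 0.0807, Foxp3 0.0191 and the brightest Pias2 probe set 0.0451. The last 3 were on the other side of the threshold. With the mean of each group subtracted, 3 of 10 arrays correlated best with their own number in the other group.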
